A study of Homo sapiens with 12 samples.

Results

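The 7 long noncoding RNAs (lncRNAs) MALAT1, NEAT1, NORAD, KCNQ1OT1, GAS5, H19 and PVT1 were followed in a human kidney tubule cell line. They were picked by name with earlier results of these data known, and each symbol was matched to its Ensembl identifier, which gave 7 of the 62703 identifiers listed. HK2 is an immortalised line of human proximal tubule epithelial cells, so that each library comes from cells of 1 line. The study extracted total RNA from HK2 cells and sequenced cDNA of 12 libraries, 3 in each of 4 groups. It asked how FGF9, a secreted fibroblast growth factor, acts on these cells in high glucose. The NG group was kept at 5.5 mM glucose and received a control vector. The HG group was kept at 50 mM glucose. The si-FGF9 group received an siRNA against FGF9 at 5.5 mM glucose, and the HG+OE-FGF9 group received a vector that overexpresses FGF9 at 50 mM glucose. The sources differ on some of these points, since the results section of the study describes the NG medium as one with mannitol and the vector as an adenovirus in place of a lentivirus. No non-targeting siRNA is described for these libraries, so that the siRNA against FGF9 and the transfection itself cannot be told apart in si-FGF9 versus NG. A control vector is described for NG only. Vector and glucose therefore cannot be told apart in HG versus NG, nor vector and FGF9 in HG+OE-FGF9 versus HG.

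LncRNAs are transcripts that are not translated into a known protein and that often act where they are kept in the cell. MALAT1 collects in nuclear speckles, stores of splicing factors, while NEAT1 is the scaffold around which paraspeckles are built. NORAD acts mainly in the cytoplasm, where it binds the Pumilio proteins, which repress mRNAs. KCNQ1OT1 and H19 are imprinted RNAs of the short arm of chromosome 11, GAS5 carries small nucleolar RNAs (snoRNAs) in its introns, and PVT1 is transcribed from the locus next to the oncogene MYC.

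NORAD was annotated as a single exon of 5339 bases on the minus strand of chromosome 20 (36045622 to 36050960, GRCh38, GENCODE release 29). Its Pumilio sites are shown because they are the feature by which NORAD acts on its protein partners. The motif TGTANATA, searched on the transcribed strand of the longest annotated transcript of each gene, occurred 15 times in NORAD, or 2.81 times per kb. At least 1 match was found in 13.5% of the 58676 genes searched and in 55.3% of the 5252 genes with a transcript of at least 5000 bases, whereas 15 or more matches were found in 6 genes. NEAT1 had 6 matches, KCNQ1OT1 had 9, and MALAT1, GAS5, H19 and PVT1 had 0. The capitals below mark the motif in 6 of the 15 sites, written 5′ to 3′ as DNA.
NORAD site at chr20:36050185-36050208, minus strand: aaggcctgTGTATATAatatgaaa
NORAD site at chr20:36049806-36049829, minus strand: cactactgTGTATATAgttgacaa
NORAD site at chr20:36049705-36049728, minus strand: tcacatttTGTAAATAcctttttg
NORAD site at chr20:36049504-36049527, minus strand: cttatctgTGTATATAgtgtacat
NORAD site at chr20:36049495-36049518, minus strand: gtatatagTGTACATAaaggacag
NORAD site at chr20:36047974-36047997, minus strand: ccctactgTGTATATAgcggacaa
The fourth and the fifth of these windows overlap, and 3 of the 15 sites started within 10 bases of the site before them.

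MALAT1 (chr11:65497688-65506516, plus strand) and NEAT1 (chr11:65422774-65445540, plus strand) are neighbours, with 52147 bases between the end of NEAT1 and the start of MALAT1. Their longest annotated transcripts have 8708 and 22743 bases, each in 1 exon. MALAT1 and the long form of NEAT1 end without a poly(A) tail, in a triple helix that a genomic A-rich tract forms with U-rich motifs upstream of it, and these 3′ elements are shown because they set how the ends of both RNAs are protected. The capitals mark the motif TTTTNCTTTT and the motif AAAAAGCAAAA, read on the transcribed strand. The match nearest the 3′ end is shown for each, out of 2 and 2 in MALAT1 and 4 and 1 in NEAT1. The other A-rich match of MALAT1 begins at base 753. The first occurs in 8.32% of the longest transcripts of all genes and in 38% of those of at least 5000 bases, the second in 0.598% and 2.99%.
MALAT1 U-rich motif, chr11:65506061-65506090, plus strand: ttttctcaggTTTTGCTTTTtggccttttt
MALAT1 A-rich tract, chr11:65506097-65506126, plus strand: taaaaaaaaAAAAAGCAAAAgatgctggtg
NEAT1 U-rich motif, chr11:65445480-65445509, plus strand: cgcactcaggTTTTGCTTTTcaccttccca
NEAT1 A-rich tract, chr11:65445521-65445540, plus strand: gtgagcaggAAAAAGCAAAA
The NEAT1 tract holds the last bases of the annotated transcript. How RNA was selected for the libraries after total RNA was extracted is not given in the sources used here. A gene-level value does not separate the short from the long form of NEAT1.

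**Figure D1:**
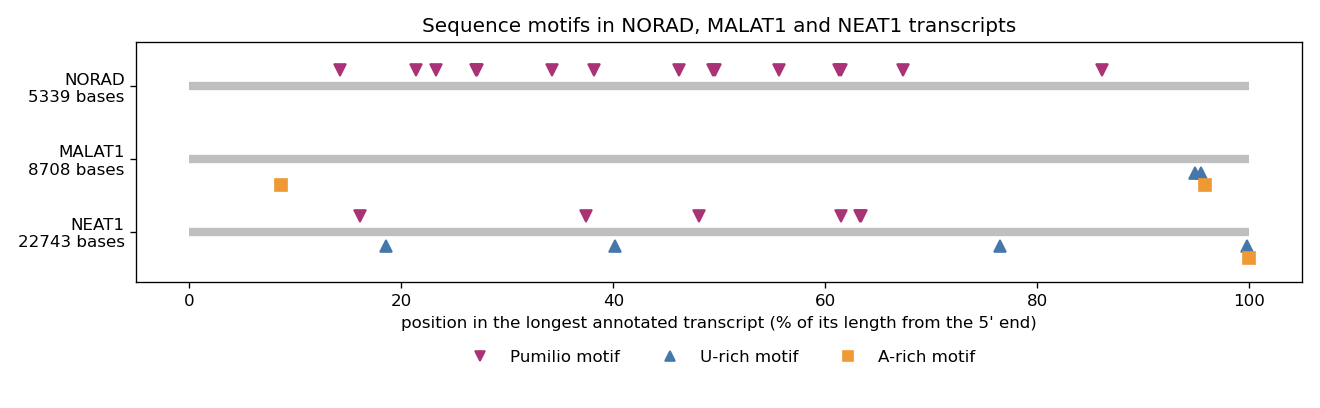
Positions of the Pumilio motif and of the U-rich and A-rich motifs along the longest annotated transcripts of NORAD, MALAT1 and NEAT1, as % of transcript length from the 5′ end. NORAD carries 15 Pumilio motifs (some marks overlap), NEAT1 6 and MALAT1 0, and both MALAT1 and NEAT1 carry a U-rich and an A-rich motif near their 3′ ends. MALAT1 also has an A-rich match near its 5′ end, and NEAT1 has further U-rich matches upstream.

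GAS5 (chr1:173863900-173868882, minus strand) and H19 (chr11:1995176-2001470, minus strand) both host smaller RNAs. GAS5 is known as a 5′ terminal oligopyrimidine transcript, a class whose translation follows growth signals, and 6 of its 29 annotated transcripts begin with a C and 4 further pyrimidines. The longest of them, of 1698 bases in 8 exons, starts as follows, with the pyrimidines in capitals.
GAS5 transcript start, chr1:173867960-173867989, minus strand: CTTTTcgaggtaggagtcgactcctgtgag
H19 is the precursor of miR-675, whose hairpin of 73 bases begins at base 1045 of the longest H19 transcript, of 2348 bases in 5 exons. The mature sequences are from RefSeq (GRCh38.p14), with the seed, bases 2 to 8, in capitals.
miR-675-5p, chr11:1996800-1996822, minus strand: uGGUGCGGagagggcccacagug
miR-675-3p, chr11:1996768-1996787, minus strand: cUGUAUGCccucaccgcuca
The mature miRNAs themselves were not measured in these libraries.

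The deposited values are TPM, a level per transcript length that is scaled to the same total in each library. They keep no record of depth, and 11549 to 13949 genes per library reached a TPM of at least 1. Log2(TPM + 1) was compared with limma in a fit of all 12 libraries over the 14639 genes that reached 1 TPM in at least 3 of them. A gene was called where its log2 fold change was at least 1 in size with an unadjusted p under 0.01. For 1 gene and 3 libraries a group, an exact permutation test (two-sided) reaches p = 0.1 at the lowest. FGF9 was listed at 0 in all NG, HG and si-FGF9 libraries and at 3.34, 4.03 and 3.82 TPM in HG+OE-FGF9, so that the siRNA could not be checked on its target. Of 16 epithelial and tubule markers, 9 had at least 1 TPM in every library, while CDH1, LRP2, CUBN, SLC34A1 and ANPEP lay below the filter. Of 10 markers of other cell types, 2 (CD68 and COL1A1) reached 1 TPM in every library and 2 were at 0 throughout. The list summed to 132.5 to 144.5 TPM in NG, 119.7 to 128.7 in HG, 110.3 to 133.8 in si-FGF9 and 159.9 to 161.3 in HG+OE-FGF9. HG replicate 3 stood apart from the other HG libraries for these lncRNAs and was the highest HG library for 6 of the 7. Small nuclear and nucleolar RNAs summed to 5277 to 16631 TPM in HG+OE-FGF9 and to 838.6 TPM or less elsewhere, and mitochondrial genes to 49385 to 85968 TPM in si-FGF9 and to at least 113127 TPM elsewhere. The part of these library differences in the values below was not tested.

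The lncRNAs covered a wide range of levels. On the TPM scale, and as means over all 12 libraries, GAS5 ranked 1 among the 14727 lncRNA genes listed, NEAT1 11, MALAT1 14, NORAD 25 and PVT1 43, whereas H19 ranked 825 and KCNQ1OT1 5314. Within NG, MALAT1 ranked 5, and within si-FGF9 it ranked 31. NORAD ranked 13 in NG and 71 in si-FGF9. The 7 lncRNAs together made up 0.206% to 0.225% of the TPM of the NG libraries, 0.105% to 0.22% in HG, 0.146% to 0.197% in si-FGF9 and 0.15% to 0.156% in HG+OE-FGF9, and most of this sum was GAS5.

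**Figure D2:**
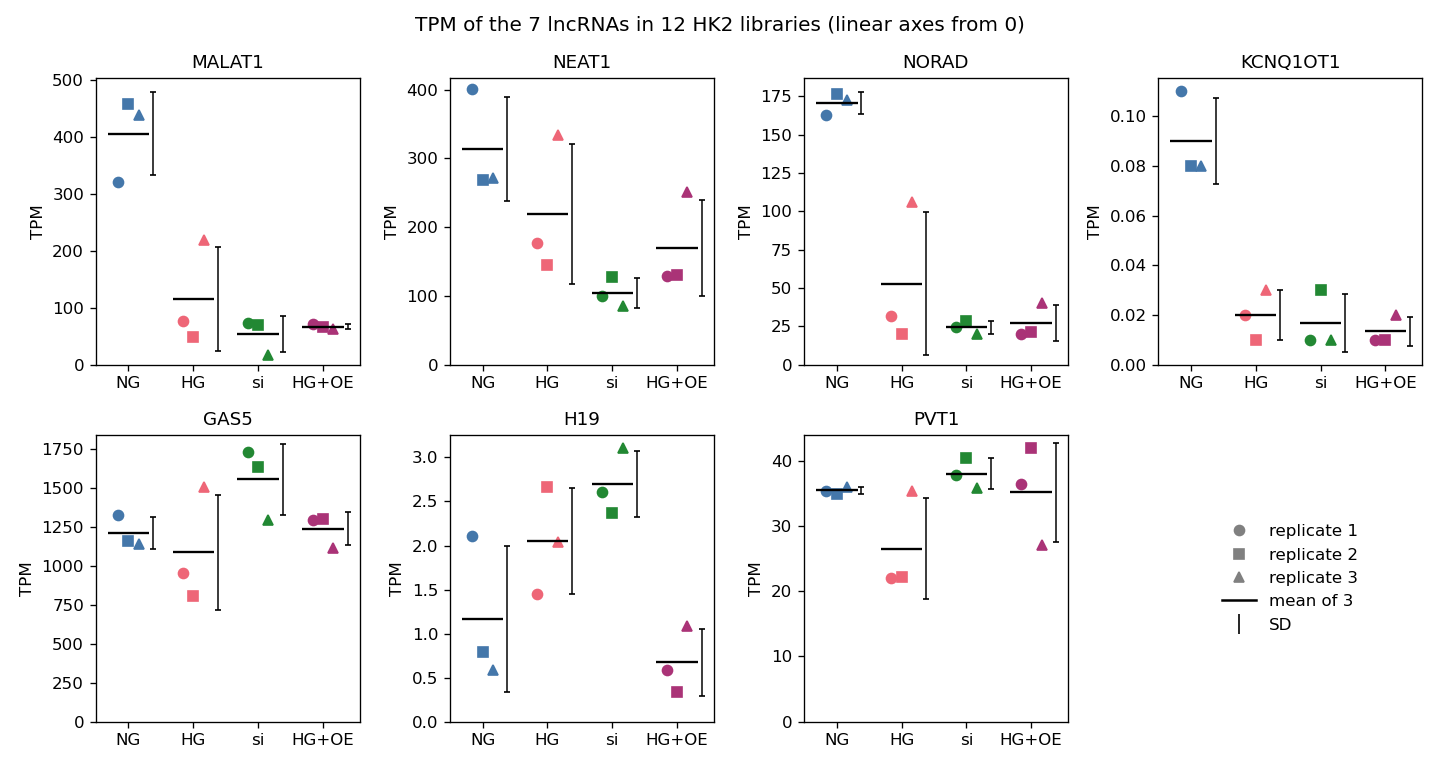
TPM of each lncRNA in the 12 HK2 libraries on linear axes from 0, with points for replicates 1 to 3, a bar for the mean of 3 and a whisker for the SD. MALAT1, NORAD and KCNQ1OT1 lie higher in all 3 NG libraries than in any other library, and HG replicate 3 (triangle) lies above the other HG libraries for every lncRNA but H19. The share of all genes that lie highest in NG was not counted. Genes stood high in NG in general, with a median log2 deviation from their mean over the 12 libraries of 0.399 to 0.451. Elsewhere this median was 0.1 or less.

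In HG versus NG, MALAT1 and NORAD fell and no lncRNA of the 6 tested was called higher. Of the 6 tested, 2 were called in HG versus NG, both lower, against 24.4% of all genes tested (22.7% lower). In si-FGF9 versus NG, MALAT1, NORAD and NEAT1 fell, which made 3 of 6, all lower, against 47.6% of all genes (42.2% lower). FGF9 overexpression in high glucose gave 0 calls among the 6 in limma, with 1 (H19) at an unadjusted p under 0.05, against 5.61% of all genes (2.67% lower and 2.94% higher). HG and si-FGF9 were set against the same NG libraries, and lower genes were common, since the fold changes of all genes had log2 medians of -0.39 in HG and -0.79 in si-FGF9 against NG, and of -0.13 for overexpression against HG. Over the 6 lncRNAs tested, the medians were -0.51, -0.74 and -0.42, of which the first and the second stand above the -0.82 and -1.32 that genes of like GC content had. Among the 1518 lncRNA genes tested, 9.42%, 25.2% and 11.5% were called in these comparisons.

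**Figure D3:**
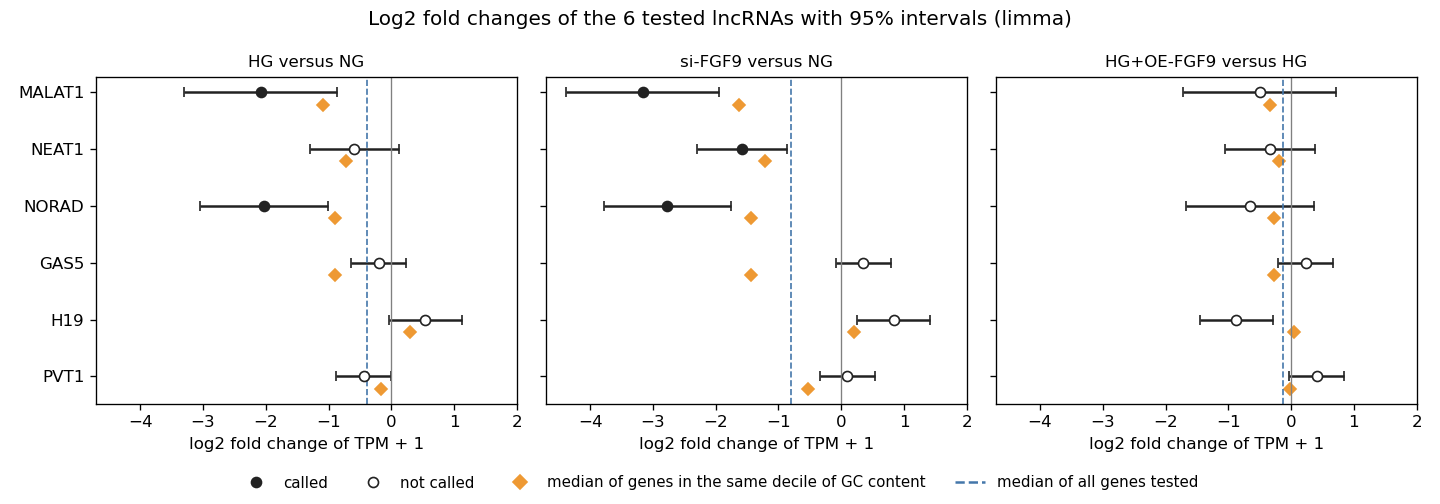
Log2 fold changes of the 6 tested lncRNAs with 95% intervals in 3 comparisons (horizontal axis, log2 of TPM + 1). Filled points were called, diamonds are the medians of genes in the same decile of GC content and dashed lines the medians of all 14639 genes, and MALAT1 and NORAD lie left of their diamonds in both comparisons with NG, whereas GAS5 lies right of its own.

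MALAT1, the speckle RNA, was lower in every library outside NG. Its TPM was 321.77, 458.15 and 438.54 in NG, and 76.67, 49.17 and 219.55 in HG. It was 72.78, 70.17 and 16.32 in the si-FGF9 libraries, and 70.60, 66.36 and 62.14 in HG+OE-FGF9. The NG libraries overlapped with no other group, HG replicate 3 was the highest outside NG, and the HG+OE-FGF9 libraries were close together. The mean was 406.2 ± 73.7 TPM (SD, n = 3) in NG and 115.1 ± 91.5 in HG, 3.53-fold lower. The log2 fold change in HG was -2.08 (SE 0.56, limma, Benjamini-Hochberg adjusted p = 0.00959). In si-FGF9 the mean was 53.1 ± 31.9 TPM, 7.65-fold below NG, with a log2 fold change of -3.16 (limma, adjusted p = 0.000308). Replicate 3 was the lowest si-FGF9 library, and without it the value was -2.47. The level in HG+OE-FGF9 also lay below NG, with a log2 fold change of -2.58 (limma, adjusted p = 0.00162), where 2 of the 6 lncRNAs were called, both lower, against 39.7% of all genes (32.7% lower). From highest to lowest the order was NG, HG, HG+OE-FGF9 and si-FGF9, and neighbours among the last 3 of these did not differ beyond the spread of their libraries. The change from HG to HG+OE-FGF9 was -0.50 (95% interval -1.72 to 0.72), and it was 0.11 without HG replicate 3. The call in HG was lost without NG replicate 2, NG replicate 3, HG replicate 1 or HG replicate 2, with log2 fold changes of -1.99, -2.02, -1.94 and -1.62, and with median-of-ratios scaling, at -1.56, whereas it was -2.69 without HG replicate 3.

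NORAD, the Pumilio-binding RNA whose sites are shown above, had the tightest NG values of the lncRNAs that fell. Its TPM was 162.43, 176.71 and 172.75 in NG, and 31.93, 19.91 and 105.91 in HG. It was 24.71, 28.37 and 20.04 in the si-FGF9 libraries, and 19.92, 21.03 and 40.30 in HG+OE-FGF9. Again no library outside NG reached the NG range, and HG replicate 3 was far above the other 2 HG libraries. The mean of 170.6 ± 7.37 TPM in NG compared with 52.6 ± 46.6 in HG, a log2 fold change of -2.03 (SE 0.47, limma, adjusted p = 0.00438). Without HG replicate 3 it was -2.71 (limma, adjusted p = 8.04e-05). It was smaller, though still called, without HG replicate 1 (-1.86), without HG replicate 2 (-1.53) and with median-of-ratios scaling (-1.51). With the correction for GC content and length it was -0.96 and not called (limma, adjusted p = 0.0517). In si-FGF9 NORAD was 7.0-fold below NG, at 24.4 ± 4.18 TPM, with a log2 fold change of -2.77 (limma, adjusted p = 0.000213), and in HG+OE-FGF9 it was 6.30-fold below NG, at -2.68 (limma, adjusted p = 0.000378). The order was that of MALAT1, and neighbours among HG, HG+OE-FGF9 and si-FGF9 did not differ beyond their spread. Between HG+OE-FGF9 and HG the log2 fold change was -0.65 (95% interval -1.67 to 0.37), and it was 0.03 without HG replicate 3.

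NEAT1, the paraspeckle scaffold, fell in si-FGF9 but was not called in HG. Its TPM was 400.65, 268.81 and 271.77 in NG, and 177.52, 144.29 and 334.66 in HG, so that HG replicate 3 lay inside the NG range. It was 100.48, 127.03 and 84.77 in si-FGF9, below every other library, and 128.70, 130.88 and 250.60 in HG+OE-FGF9, where replicate 3 was the highest. The fall from 313.7 ± 75.3 TPM in NG to 104.1 ± 21.4 in si-FGF9 was 3.01-fold, with a log2 fold change of -1.58 (SE 0.33, limma, adjusted p = 0.000988). With median-of-ratios scaling it was -0.53 and the call was lost (limma, adjusted p = 0.0915). In HG versus NG it was -0.59 (95% interval -1.30 to 0.13, limma, adjusted p = 0.159), and -0.94 without HG replicate 3 (adjusted p = 0.0178), still short of the fold needed for a call. In si-FGF9 versus HG, where 0 of the 6 lncRNAs were called against 11.1% of all genes and 3 (NEAT1, GAS5 and PVT1) had an unadjusted p under 0.05 in limma, NEAT1 differed by -0.99 (limma, adjusted p = 0.0383). The order was again NG, HG, HG+OE-FGF9 and si-FGF9, and no pair of neighbours was called, although the si-FGF9 and HG+OE-FGF9 libraries did not overlap (limma, adjusted p = 0.168). The change from HG to HG+OE-FGF9 was -0.34 (95% interval -1.06 to 0.38), and 0.01 without HG replicate 3.

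KCNQ1OT1, which silences its imprinted neighbours in cis and is transcribed antisense to KCNQ1, was close to the limit of the table. It is annotated as 1 exon of 91667 bases (chr11:2608328-2699994, minus strand), which makes a low TPM for a given number of reads. Its TPM was 0.11, 0.08 and 0.08 in NG, and 0.02, 0.01 and 0.03 in HG. It was 0.01, 0.03 and 0.01 in the si-FGF9 libraries, and 0.01, 0.01 and 0.02 in HG+OE-FGF9. All 3 NG libraries were above the other 9, and the other groups overlapped with each other. The NG mean was 4.5 times that of HG, but values are given to 2 decimals, and an error of 0.005 TPM in each mean allows a ratio of 3.4 to 6.33. For si-FGF9 the ratio was 5.4 (3.92 to 8.14) and for HG+OE-FGF9 6.75 (4.64 to 11.4). It did not pass the filter on low values and was not tested in the main limma fit, and each of these comparisons had the smallest exact permutation p, 0.1. With no filter, its log2 fold changes against NG were -0.096 in HG and -0.10 in si-FGF9 (limma, adjusted p = 0.00749 and 0.00186). Neither reached the fold needed for a call. KCNQ1 itself had a mean of 0.01 TPM in NG and 0.137 in HG+OE-FGF9, and since the strand setting of the counting is not given in the sources used here, reads from both strands cannot be told apart.

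GAS5, the snoRNA host, was the most abundant of the 7 and was called in none of the 6 pairwise comparisons of the groups. Its TPM was 1328.37, 1157.62 and 1143.01 in NG, and 950.80, 807.51 and 1507.04 in HG, with HG replicate 3 above all NG libraries and the other HG libraries below them. It was 1734.02, 1634.60 and 1296.72 in the si-FGF9 libraries, and 1295.53, 1301.26 and 1115.95 in HG+OE-FGF9. All groups overlapped. The log2 fold change was -0.20 in HG (95% interval -0.64 to 0.24, limma, adjusted p = 0.432), 0.35 in si-FGF9 (-0.08 to 0.79, adjusted p = 0.134) and 0.23 for overexpression against HG (-0.20 to 0.67, adjusted p = 0.457). Without HG replicate 3, GAS5 was at -0.46 in HG and 0.49 for overexpression against HG (limma, adjusted p = 0.0163 and 0.0404). Both stayed short of the fold for a call. The order was si-FGF9, HG+OE-FGF9, NG and HG, and no neighbours differed beyond their spread. The direction in HG depended on the scaling, since median-of-ratios scaling of the libraries put GAS5 at 0.32, and in si-FGF9 it was then called higher, at 1.4 (limma, adjusted p = 0.000111). GAS5 overlaps the antisense gene GAS5-AS1, whose reads cannot be told apart without the strand. The snoRNAs in its introns matched 0 of 10 identifiers by position and were not analysed here.

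H19, the imprinted precursor of miR-675, was near the filter on low values and differed between the si-FGF9 and HG+OE-FGF9 groups. Its TPM was 2.11, 0.79 and 0.59 in NG, and 1.45, 2.66 and 2.04 in HG. It was 2.61, 2.37 and 3.11 in the si-FGF9 libraries, and 0.59, 0.34 and 1.09 in HG+OE-FGF9. The si-FGF9 libraries lay above all NG libraries, the HG+OE-FGF9 libraries lay below all HG libraries, and NG overlapped with HG and HG+OE-FGF9. In si-FGF9 versus HG+OE-FGF9 the means were 2.70 ± 0.378 and 0.673 ± 0.382 TPM, a log2 fold change of 1.16 (SE 0.27, limma, adjusted p = 0.00932). This was the call of 1 of the 6 lncRNAs in that comparison, against 9.0% of all genes (1.65% higher), and the groups differ in glucose as well as in FGF9. In si-FGF9 versus NG the log2 fold change was 0.83 (limma, adjusted p = 0.015) and for HG+OE-FGF9 against HG it was -0.87 (adjusted p = 0.0625), both short of the fold for a call. With a pseudocount of 0.1 in place of 1 the latter was -1.55 and called (adjusted p = 0.0623), and it was also called without HG replicate 1 (-1.02) or HG+OE-FGF9 replicate 3 (-1.04). H19 in si-FGF9 versus NG was called higher without NG replicate 1, the highest NG library, at 1.13, with median-of-ratios scaling, at 1.46, and with quantile normalization, at 1.58 (limma, adjusted p = 0.00037 for the last). Other settings gave smaller values with no call. These were 0.73 without NG replicate 2, 0.64 without NG replicate 3 and 0.64 with the GC correction (limma, adjusted p = 0.0718 for the last). The order was si-FGF9, HG, NG and HG+OE-FGF9, with no neighbours past their spread, and H19 in HG was at 0.54 against NG (95% interval -0.04 to 1.13).

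PVT1, the MYC neighbour (plus strand of chromosome 8, 127794533 to 128101253), had 8 exons in its longest annotated transcript of 1699 bases and 25 annotated transcripts. Its TPM was 35.50, 34.95 and 36.13 in NG, and 22.03, 22.22 and 35.49 in HG, where replicate 3 fell inside the NG range. It was 37.95, 40.55 and 35.87 in the si-FGF9 libraries, and 36.55, 42.05 and 27.07 in HG+OE-FGF9. The NG libraries had a coefficient of variation of 1.66%, and HG replicates 1 and 2 were the lowest of all 12. The log2 fold change in HG was -0.44 (95% interval -0.88 to -0.001, limma, adjusted p = 0.0892), in si-FGF9 0.10 (-0.34 to 0.54, adjusted p = 0.683) and for overexpression against HG 0.41 (-0.03 to 0.84, adjusted p = 0.207). Without HG replicate 3, PVT1 was at -0.66 in HG and 0.63 for overexpression against HG (limma, adjusted p = 0.0059 and 0.0299). Both stayed short of the fold for a call. The order was si-FGF9, NG, HG+OE-FGF9 and HG, and no neighbours differed beyond their spread. With median-of-ratios scaling PVT1 was at 0.07 in HG and was called higher in si-FGF9, at 1.12 (limma, adjusted p = 0.00119).

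The fold changes of all genes followed their GC content, and the lncRNAs that fell are poor in GC. MALAT1 has 40.3% GC, NORAD 41.6%, GAS5 42.2%, KCNQ1OT1 43.7%, NEAT1 44.1%, PVT1 52.2% and H19 63.4%. Genes in the same decile of GC content as MALAT1 had log2 medians of -1.08 (HG) and -1.63 (si-FGF9), and those in the decile of NORAD and GAS5 -0.905 and -1.435. NEAT1, at -0.59 in HG, lay above its decile at -0.73, but in si-FGF9, at -1.58, it lay below its decile at -1.21. In the decile of H19 the medians were 0.297 (HG) and 0.201 (si-FGF9). When the GC trend of each library was removed, NORAD was still called in HG at -1.10 and in si-FGF9 at -1.33, and MALAT1 in si-FGF9 at -1.62. With a replicate block beside the GC correction, MALAT1 in si-FGF9 was no longer called (limma, adjusted p = 0.0224). With the GC correction alone, MALAT1 in HG was at -1.07 (limma, adjusted p = 0.1) and NEAT1 in si-FGF9 at -0.43 (adjusted p = 0.126), and neither was called. GAS5 went from -0.20 to 0.68 in HG and was called higher in si-FGF9, at 1.72 (adjusted p = 1.2e-05). The part of base composition in the measured TPM was not tested further.

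**Figure D4:**
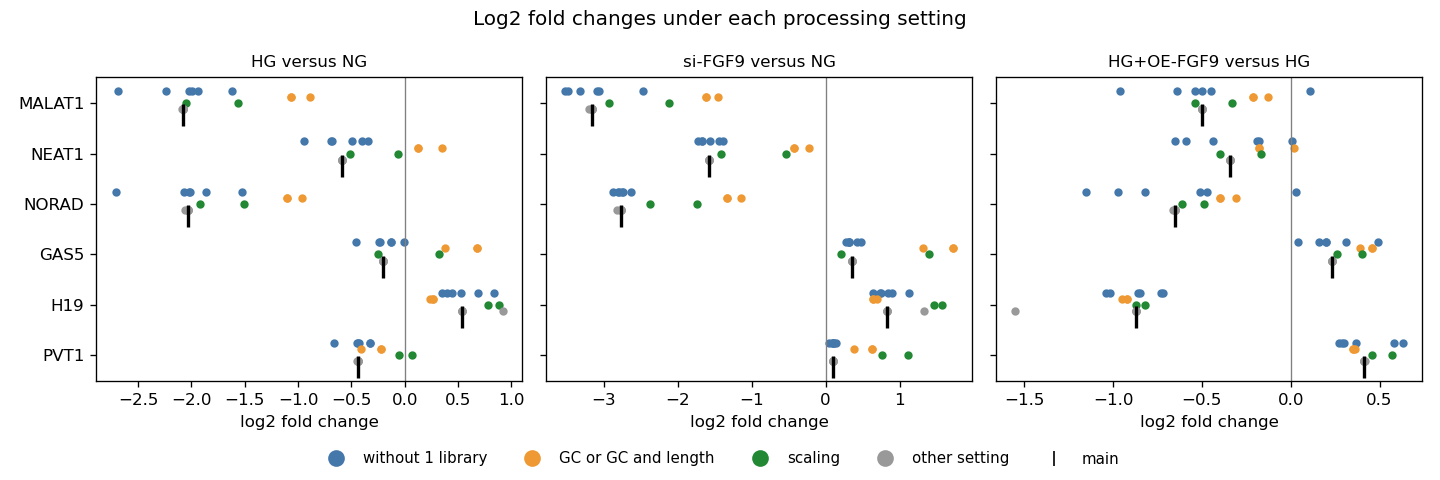
Log2 fold changes of the 6 tested lncRNAs under each processing setting in 3 comparisons (horizontal axes, each on its own scale), coloured by kind of setting, with the black bar for the value as reported. MALAT1 and NORAD stay below 0 in HG and si-FGF9 under every setting, while GAS5 in HG lies on both sides of 0.

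The proteins that share bodies with these lncRNAs were counted next, and the lists, like the lncRNAs, were chosen with earlier results of these data known. Of 12 nuclear speckle proteins, 7 fell in HG, 10 in si-FGF9 and 1 (SRSF1, at -1.15) in HG+OE-FGF9 versus HG, and 0 rose, where 22.7%, 42.2% and 2.67% of all genes fell. The list medians were -1.18, -2.39 and -0.77, against -0.39, -0.79 and -0.13 over all genes. The speckle genes have 36.6% to 56.2% GC, and the medians of their GC deciles centred on -0.99, -1.53 and -0.3. PNISR, a serine- and arginine-rich protein, fell from 104 TPM in NG down to 21.6 (HG) and 6.62 (si-FGF9), log2 fold changes of -2.57 and -3.87 (limma, adjusted p = 0.00363 and 7.78e-05). The splicing factor SRSF11 had log2 fold changes of -2.43 and -3.10, and in HG the splicing coactivator SRRM1 and PNN fell as well, at -1.81 and -1.69. In si-FGF9 the splicing factors SRSF5 and SRSF3 followed at -2.81 and -2.7. SON and SRRM2, which form the core of speckles, were not called, and SRRM2 was at 0.45 in HG and 0.72 in si-FGF9.

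Of 12 paraspeckle proteins, 1 fell in HG and 5 in si-FGF9, a share below that of all genes in HG (22.7%) and near it in si-FGF9 (42.2%), with 0 called in HG+OE-FGF9 versus HG in limma, where 5 (NONO, SFPQ, PSPC1, HNRNPK and CPSF6) had an unadjusted p under 0.05. The RNA-binding protein HNRNPH3 fell in both, with log2 fold changes of -1.18 in HG (limma, adjusted p = 0.00894) and -2.54 in si-FGF9. In si-FGF9 HNRNPK was at -2.24, and CPSF6 and NUDT21, subunits of the cleavage factor that favours the short form of NEAT1, were at -2.11 and -1.85. NONO, which binds NEAT1, fell there too, at -1.76, and its partner SFPQ was at -0.49 and not called. The list medians were -0.42 (HG) and -0.95 (si-FGF9), against -0.39 and -0.79 over all genes and -0.63 and -1.08 for their GC deciles.

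Among 8 protein partners of NORAD, 4 fell in HG and 6 in si-FGF9, against 22.7% and 42.2% of all genes. The list medians were -0.97 and -1.9, against -0.39 and -0.79 over all genes and -0.72 and -1.19 for the GC deciles of the partners. The Pumilio protein PUM2 fell from 16.9 TPM in NG down to 5.81 (HG) and 2.67 (si-FGF9), log2 fold changes of -1.43 and -2.30 (limma, adjusted p = 0.00146 and 1.45e-05). TOP1, a DNA topoisomerase, was at -1.17 and -2.37, and the splicing factor CDC5L at -1.44 and -2.16. ALYREF and PRPF19 were not called. In HG+OE-FGF9 versus HG 0 of the 8 were called in limma, and 4, with RBMX and KHDRBS1 among them, had an unadjusted p under 0.05.

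In the imprinted region around H19 and KCNQ1OT1, 9 of 10 listed neighbours were tested, with KCNQ1 below the filter. Of these, 1 rose in HG, and 4 rose and 2 fell in si-FGF9. Of all genes, 1.65% rose in HG, and 5.36% rose and 42.2% fell in si-FGF9. The list medians were 0.4 and 0.93, and those of the GC deciles of these GC-rich genes 0.3 and 0.2. MRPL23, a mitochondrial ribosomal protein gene beside H19, rose from 47.7 TPM in NG up to 126.0 (HG) and 179.8 (si-FGF9), log2 fold changes of 1.33 and 1.90 (limma, adjusted p = 0.00104 and 1.59e-05). IGF2, the growth factor gene imprinted in the opposite sense to H19, was at 8.76 TPM in NG and fell in si-FGF9, at -1.28 (limma, adjusted p = 0.000119), while H19 was at 0.83. CDKN1C, a cell cycle inhibitor and a known target of KCNQ1OT1 silencing, was at 50.1 TPM in NG, 52.3 in HG and 144.9 in si-FGF9 (1.51, adjusted p = 3.5e-05). The transporter SLC22A18 and PHLDA2 rose in si-FGF9, at 1.30 and 1.05, and NAP1L4, a nucleosome assembly protein, fell, at -1.43. In HG+OE-FGF9 versus HG 0 of 9 were called in limma, and 3 (IGF2, CD81 and OSBPL5) had an unadjusted p under 0.05.

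GAS5 was compared with 14 other lncRNAs that host snoRNAs, of which 13 were not called in HG and 11 in si-FGF9, with list medians of -0.19 and 0.2, against -0.43 and -0.84 for their GC deciles. Of the 14, 1 fell in HG, and 1 rose and 2 fell in si-FGF9. In these comparisons 24.4% and 47.6% of all genes were called, and 9.42% and 25.2% of the lncRNA genes tested. SNHG3 fell from 100.4 TPM in NG down to 25.0 (HG) and 17.4 (si-FGF9), log2 fold changes of -1.91 and -2.41 (limma, adjusted p = 0.00113 and 3.61e-05), and SNHG1 fell in si-FGF9, at -1.49. ZFAS1 rose in si-FGF9 by 1.37, from 759.6 to 2008.3 TPM. Because spliced GAS5 is degraded by nonsense-mediated decay, 10 factors of that pathway were listed, of which 3 fell in HG and 4 in si-FGF9, near the 22.7% and 42.2% of all genes. The list medians were -0.77 and -0.69, against -0.39 and -0.79 over all genes. The kinase SMG1 was at -1.76 and -2.03 and UPF3B at -1.41 and -2.01. UPF2 fell in HG, at -1.59, and was at 0.10 in si-FGF9, and SMG8 fell in si-FGF9, at -2.34. UPF1, the central helicase, was not called. In HG+OE-FGF9 versus HG 0 of the 10 decay factors were called in limma and 0 had an unadjusted p under 0.05, and of the 14 host genes 0 were called and 2 (SNHG8 and SNHG15) were under it.

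Around PVT1, 3 of 6 listed neighbours were tested, with 2 called lower in HG, 3 after the siRNA and 1 on overexpression in high glucose. Of all genes, 22.7%, 42.2% and 2.67% were called lower in these comparisons. The list medians were -1.15, -2.16 and -0.56, against -0.73, -1.21 and -0.2 for the GC deciles of the genes tested. MYC fell from 218.6 TPM in NG down to 98.7 (HG) and 57.4 (si-FGF9), log2 fold changes of -1.15 and -1.94 (limma, adjusted p = 0.00147 and 1.26e-05), whereas PVT1 was at -0.44 and 0.10. ASAP1, a regulator of ARF proteins, fell in all 3 comparisons, at -1.82, -3.21 and -1.04 (limma, adjusted p = 0.0564 for the last), and CYRIB fell in si-FGF9, at -2.16.

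**Figure D5:**
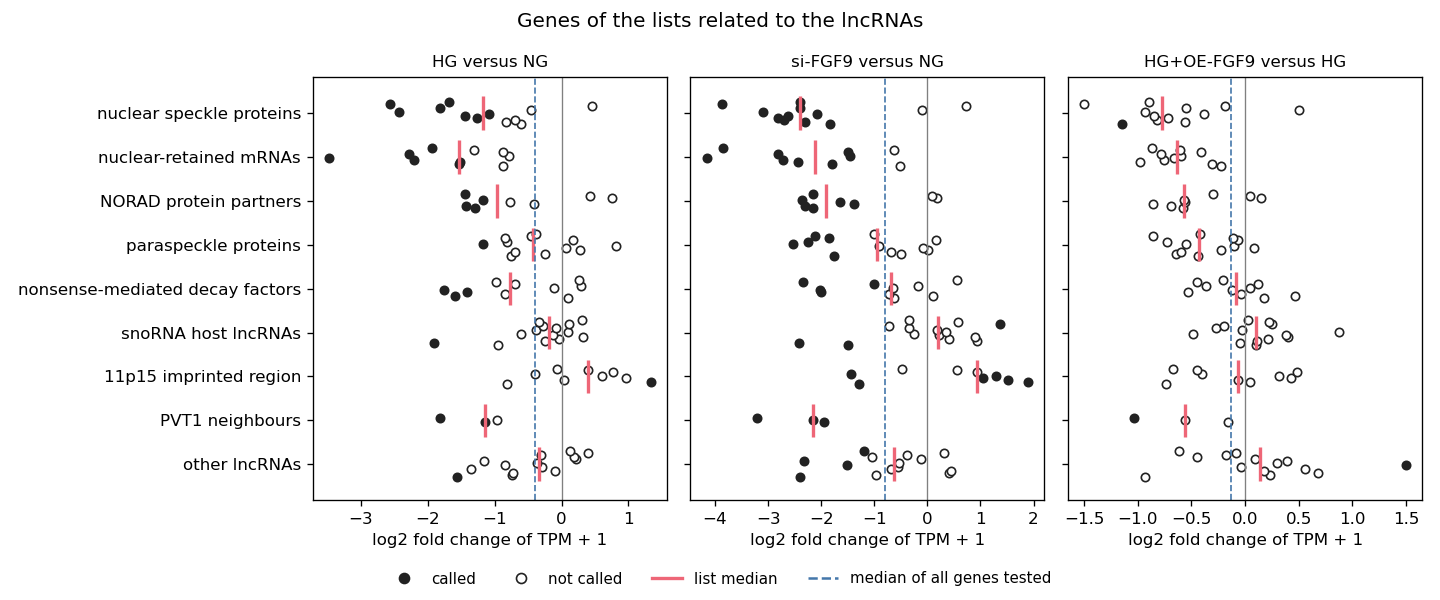
Log2 fold changes (log2 of TPM + 1, a scale of its own in each panel) of the genes of 9 lists related to the lncRNAs. Filled points were called, red bars are list medians and dashed lines the medians of all genes tested, and 5 lists (nuclear speckle proteins, paraspeckle proteins, NORAD partners, PVT1 neighbours and nuclear-retained mRNAs) lie to the left of the dashed line by their medians in all 3 panels.

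The lncRNAs that fell varied together over the 12 libraries, and each had its highest mean in NG. For NEAT1, HG replicate 3 (334.66 TPM) lay inside the NG range. Pearson's r of log2(TPM + 1) was 0.925 between MALAT1 and NORAD, 0.876 between NEAT1 and NORAD and 0.826 between MALAT1 and NEAT1, and it was 0.830 between GAS5 and PVT1, as a description with no test. Among 6052 genes with a symbol and a mean of at least 10 TPM, the patterns most like that of MALAT1 were JUN (r = 0.973), WSB2 and VTA1. For NORAD they were UBE2W (0.997), PPP1R15B and UFM1, and for NEAT1 TPD52L1 (0.985), H3-3A and SRP14. Those most like GAS5 were HOTAIRM1 (0.960), the snoRNA host EPB41L4A-AS1 (0.958) and AFAP1. For H19 they were RARRES2 (0.913), B4GALNT4 and SNX33, and for PVT1 PBX4 (0.945), CLDN4 and RALA.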

How the data were processed

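The authors deposited TPM for 62703 Ensembl gene identifiers, as a table of all 12 libraries and as 12 sample files that hold the same values. The unit was read from the values, which have 2 decimals and sum to nearly the same total in each library. The processing notes of the submitters list Bowtie 0.12.2 and mm8, a mouse build, with no role given, while the rows are human genes, and the tool and annotation behind the TPM are not given in the sources used here. The depth is therefore unknown, and precision was judged from the spread of 3 libraries. The labels do not say that replicates were separate cultures, so that p-values measure the spread between these samples only. Symbols were matched for 42300 identifiers, and GC content, lengths and sequences were taken from GENCODE release 29 (GRCh38) for 96.9% of the genes tested.

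The test was that of limma 3.58.1 (R 4.3.3), run on log2(TPM + 1) with a variance trend, all 12 libraries in a single fit and Benjamini-Hochberg adjustment over 14639 genes. Fold changes on this scale understate the change of low genes. The criteria for a call are those of the study, which names no tool. The GC correction removed from each library a spline of 5 degrees of freedom over GC content. Alternatives were other filters, pseudocounts, scalings and call rules, a replicate block, corrections for GC content and length, and each library left out. The 7 lncRNAs and the lists were chosen with earlier results of these data known. Of each list, up to 4 called genes with the largest fold changes per comparison were named, with neighbours and hosted genes of the lncRNAs. NONO in si-FGF9 was named beyond this rule. The other genes named as not called were chosen after their values were seen. Some listed genes are counted with their list but not reported here by name.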

Additional observations from a re-analysis of the deposited data

How the results depend on the processing

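The number of lncRNAs called in HG versus NG went from 2 to 1 (NORAD) with median-of-ratios scaling, with the GC correction and with the replicate block and GC correction together, and to 0 with the correction for GC content and length. It ranged from 1 to 2 when single libraries were left out. In si-FGF9 versus NG it went from 3 to 5 with median-of-ratios scaling (MALAT1, NORAD, GAS5, H19 and PVT1, without NEAT1), which moved the median of all genes from -0.39 to 0.01 in HG and from -0.79 to 0 in si-FGF9. In HG+OE-FGF9 versus HG it went from 0 to 1 (H19) with a pseudocount of 0.1, and ranged from 0 to 1 when single libraries were left out, with 1 where HG replicate 1 or HG+OE-FGF9 replicate 3 was left out. The signs that turned were those of NEAT1 in HG (0.12 with the GC correction, 0.35 with GC and length, 0.12 with block and GC), GAS5 in HG (0.32 with median of ratios, 0.68 with GC, 0.38 with GC and length, 0.68 with block and GC), PVT1 in HG (0.07 with median of ratios) and, in HG+OE-FGF9 versus HG, NEAT1 (0.02 with GC and length), and MALAT1, NEAT1 and NORAD without HG replicate 3 (0.11, 0.01 and 0.03, the highest of the values with single libraries left out, whose lowest were -0.96, -0.65 and -1.15). The cause was not tested. Of the other results for single lncRNAs and their sum, 287 kept direction and call, 11 gained a call and 14 lost it. Replicate numbers were shared between groups, but deviations of same-numbered libraries correlated at -0.163 to 0.248, so the numbers were not taken as pairs. With the replicate block and GC correction 2 (NORAD and GAS5) were called in si-FGF9 versus NG. With the block alone 2, 3 and 0 lncRNAs were called, and genome-wide counts of 3518, 6922 and 793 compared with 3570, 6966 and 821.
Genome-wide counts in HG versus NG, 3570 as reported (242 higher, 3328 lower), were 2301 (1090 higher, 1211 lower) with median of ratios, 2236 (1016 higher, 1220 lower) with quantile normalization, 970 (536 higher) with GC, 968 with block and GC, 749 (402 higher) with GC and length and 2238 without HG replicate 2. In si-FGF9 versus NG, 785 higher and 6181 lower as reported, they were 5381 (2814 higher, 2567 lower) with median of ratios, 4873 (2373 higher) with quantile normalization, 3452 (1751 higher) with GC, 3426 with block and GC and 2817 with GC and length. For overexpression against HG, with 430 higher and 391 lower as reported, they were 428 where all 12 libraries had to reach 1 TPM, 799 (533 higher, 266 lower) with median of ratios, 1360 without HG replicate 2, and 1617 where HG+OE-FGF9 replicate 3 was left out. H19 was not tested with the filter over all 12 libraries.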

Other observations

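Of 10 mRNAs known to be kept in the nucleus or to retain introns, 6 fell in HG and 8 in si-FGF9, and 0 rose, where 22.7% and 42.2% of all genes fell. The list medians were -1.53 and -2.11, against -0.39 and -0.79 over all genes and -1.15 and -1.71 for the GC deciles of these GC-poor genes. CCNL1, a cyclin of the splicing machinery, fell from 180.4 TPM in NG down to 18.5 (HG) and 9.77 (si-FGF9), log2 fold changes of -3.48 and -4.16 (limma, adjusted p = 0.000703 and 2.18e-05). The RNA helicase DDX5 was at -1.94 and -3.85, NKTR at -2.28 and -2.82, and MAT2A, which makes S-adenosylmethionine and is regulated by nuclear retention, at -2.20 and -2.71. CLK1 and TIA1 were not called. In HG+OE-FGF9 versus HG 0 of the 10 were called in limma, and 4 (OGT, CCNL2, NKTR and DDX5) had an unadjusted p under 0.05.

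Of 14 further lncRNAs tested among 19 listed, 1 fell in HG and 4 in si-FGF9, against 22.7% and 42.2% of all genes, and 9.42% and 25.2% of the lncRNA genes tested were called in either direction. TUG1 fell from 29.8 TPM in NG down to 10.0 (HG) and 4.93 (si-FGF9), at log2 fold changes of -1.56 and -2.4 (limma, adjusted p = 0.00316 and 5.74e-05). MIR22HG and UCA1 fell in si-FGF9, at -2.32 and -1.19. FTX, a noncoding neighbour of the X-inactivation centre, fell in si-FGF9, at -1.51, and rose in HG+OE-FGF9 versus HG, at 1.5 (limma, adjusted p = 0.0095). CYTOR, CRNDE and OIP5-AS1 were not called.

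All 5 structured RNAs without a poly(A) tail that were tested rose in HG+OE-FGF9 versus HG, as did 2.94% of all genes, with 0 called in the other comparisons by limma and 0 at an unadjusted p under 0.05. RN7SK, which holds back transcription elongation, was at 57.2 TPM in HG and 3631.5 in HG+OE-FGF9, a log2 fold change of 6.34 (limma, adjusted p = 0.00029). The listed structured RNAs summed to 5587.9 and 5454.1 TPM in HG+OE-FGF9 replicates 1 and 2, but to 1787.9 in replicate 3. Small nuclear and nucleolar RNAs were split alike, at 16536.5, 16631.4 and 5277.1 TPM in these replicates. Of 14 replication-dependent histone genes 5 rose in HG+OE-FGF9 versus HG, led by H4C3 at 2.01 and H1-4 at 1.97. The listed histone genes summed to a mean of 206.9 TPM in HG+OE-FGF9 (151.8 to 237.2) and 312.4 in HG (191.3 to 520.5). In HG versus NG 1 histone gene (H2AC6, at -1.51) fell, where 22.7% of all genes fell. In si-FGF9 versus NG H1-2 rose and H2BC12 fell, at 1.51 and -1.25, where 5.36% of all genes rose and 42.2% fell.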
